A study of Mus musculus with 7 samples.

Results

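The genes described here are those of the norrin and Wnt signals that keep the vessels of retina and brain tight. They were chosen by symbol from a list of 10 (Ndp, Fzd4, Lrp5, Lrp6, Tspan12, Adgra2, Reck, Ctnnb1, Lef1 and Axin2), of which 9 were among the 12756 genes of the deposited table. Fzd4 was not analysed here. Of the 9, 8 passed the filter on low values, at least 1 CPM (a read share scaled to a fixed library total) in at least 3 libraries, and were tested among 10899 genes in all. Ndp did not pass it.

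Norrin, the secreted product of Ndp, binds the receptor Frizzled-4 on retinal endothelial cells. Frizzled-4 signals with the co-receptors Lrp5 or Lrp6, and the tetraspanin Tspan12 promotes its response to norrin. In the brain, and in part in the retina, Wnt7a and Wnt7b act on endothelium through a receptor complex that holds Adgra2 (Gpr124) and the anchored protein Reck. Both inputs stabilise beta-catenin, the product of Ctnnb1, which enters the nucleus and binds factors of the TCF/LEF family such as Lef1, and Axin2 is a direct target that feeds back to promote the breakdown of beta-catenin. Loss of norrin signalling in mice leaves retinal vessels sparse and leaky, with low claudin-5 and high plasmalemma vesicle protein.

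Mice of the C57BL/6 strain, adult, had received an antibody against the Notch ligand Dll4 (4 libraries) or a control IgG (3 libraries). All carried Cdh5-CreERT2, an inducible Cre driven by an endothelial cadherin promoter, and the RiboTag allele Rpl22 tm1.1Psam, which puts an HA tag on ribosomes of cells in which Cre has acted. RNA bound to tagged ribosomes was pulled down from whole retina and read from its 3′ end with QuantSeq. The labels give neither the dose nor the day of collection, and they leave unsaid whether libraries came from separate animals. The p-values rest on the spread between libraries, which may be technical in part.

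The libraries held 1356192 to 1771086 reads on the listed genes, and a count of 0 allows up to 1.69 to 2.21 CPM (3 reads). The summed level of 18 endothelial markers of the 19 listed (Pecam1, Cdh5, Kdr and others) was 6460 to 9687 CPM in anti-Dll4 libraries, against 2729 to 4494 CPM in control libraries. The summed level of 15 rod photoreceptor markers was 12055 to 21964 CPM in anti-Dll4 libraries, against 27373 to 28657 CPM in control libraries. The libraries labelled as endothelial therefore also held rod RNA, and both sums separated the groups. Müller glia markers, all 12 in the table, summed to 1737 to 2708 CPM in anti-Dll4 and 2077 to 2969 CPM in control libraries, and 6 pericyte markers of 10 to 135 to 272 CPM in anti-Dll4 and 176 to 362 CPM in control libraries. These sums are shares of the RNA in the pull-down and do not count cells of the retina. Fewer cells of a type, less RNA per cell and a difference in the pull-down itself cannot be told apart.

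Sequence before the RefSeq transcription start (GRCm38.p6) was at hand for 7 of the 10 genes, in 11 windows of 250 bases. It is shown for the ligand gene Ndp, for Reck, which with Adgra2 had an unadjusted p under 0.05, and for Lef1 and Axin2, the TCF/LEF factor and the feedback target. Each is given 5′ to 3′ on the gene's own strand, and capitals mark a match to CTTTGAA or CTTTGAT or CTTTGTA or CTTTGTT, the forms of the TCF/LEF element searched on both strands.
Ndp (chrX:16911775-16912024, minus strand): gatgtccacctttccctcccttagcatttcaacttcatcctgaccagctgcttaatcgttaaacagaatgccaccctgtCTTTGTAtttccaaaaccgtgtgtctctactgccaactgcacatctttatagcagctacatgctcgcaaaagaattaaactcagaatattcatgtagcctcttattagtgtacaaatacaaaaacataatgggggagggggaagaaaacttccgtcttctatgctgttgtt
Reck (chr4:43875280-43875529, plus strand): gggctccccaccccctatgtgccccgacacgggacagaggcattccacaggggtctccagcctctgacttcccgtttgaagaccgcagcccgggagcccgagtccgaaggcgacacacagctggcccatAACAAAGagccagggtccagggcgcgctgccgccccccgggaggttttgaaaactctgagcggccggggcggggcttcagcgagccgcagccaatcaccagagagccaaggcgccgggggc
Lef1 (chr3:131156044-131156293, plus strand, the most downstream of its listed starts): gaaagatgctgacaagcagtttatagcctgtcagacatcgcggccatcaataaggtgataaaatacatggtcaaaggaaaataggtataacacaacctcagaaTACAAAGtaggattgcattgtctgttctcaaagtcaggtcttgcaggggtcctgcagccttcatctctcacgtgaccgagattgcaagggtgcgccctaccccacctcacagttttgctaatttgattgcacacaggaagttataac
Axin2 (chr11:108920099-108920348, plus strand): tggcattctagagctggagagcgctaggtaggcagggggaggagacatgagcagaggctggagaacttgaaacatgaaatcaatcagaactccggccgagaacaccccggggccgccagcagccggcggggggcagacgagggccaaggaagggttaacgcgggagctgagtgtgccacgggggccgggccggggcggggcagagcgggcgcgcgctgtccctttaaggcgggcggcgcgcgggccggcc
A match was found once in each of the first 3 windows, 171 bases before the start in Ndp, 121 in Reck and 147 at this start of Lef1. The windows of Axin2, Tspan12, Fzd4, both of Ctnnb1 and the other 3 of Lef1 held none, Adgra2, Lrp5 and Lrp6 had no entry, and 14.8% of all 32851 windows held at least 1. These matches are letters only, and no binding was measured.

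Blocking Dll4 was compared with control IgG for each gene. No member passed an adjusted p of 0.05 (limma, Benjamini-Hochberg over 10899 genes), 0 of 8, against 0.119% of all tested genes. At an unadjusted p under 0.05 there were 2 of the 8, Adgra2 higher and Reck lower, against 7.09% of all tested genes, and limma voom on whole reads called 0 of 8 (0.349% of all genes) and had 1, Adgra2, at that level. Changes were positive for 5 members and negative for 3, with a median of 0.22 on the log2(CPM + 1) scale, beside -0.14 over all tested genes, of which 45.5% were positive. With libraries scaled on endothelial markers, 3 of the 8 were positive and their median was -0.77, beside -1.09 over all tested genes. With 1 library left out, and 6 to 8 members tested, the median was 0.099 (without control IgG 1) to 0.46 (without anti-Dll4 4). Among the 8, only Adgra2 had groups that did not overlap, higher in anti-Dll4, against 7.59% of all tested genes, 3.84% higher and 3.75% lower.

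**Figure D1:**
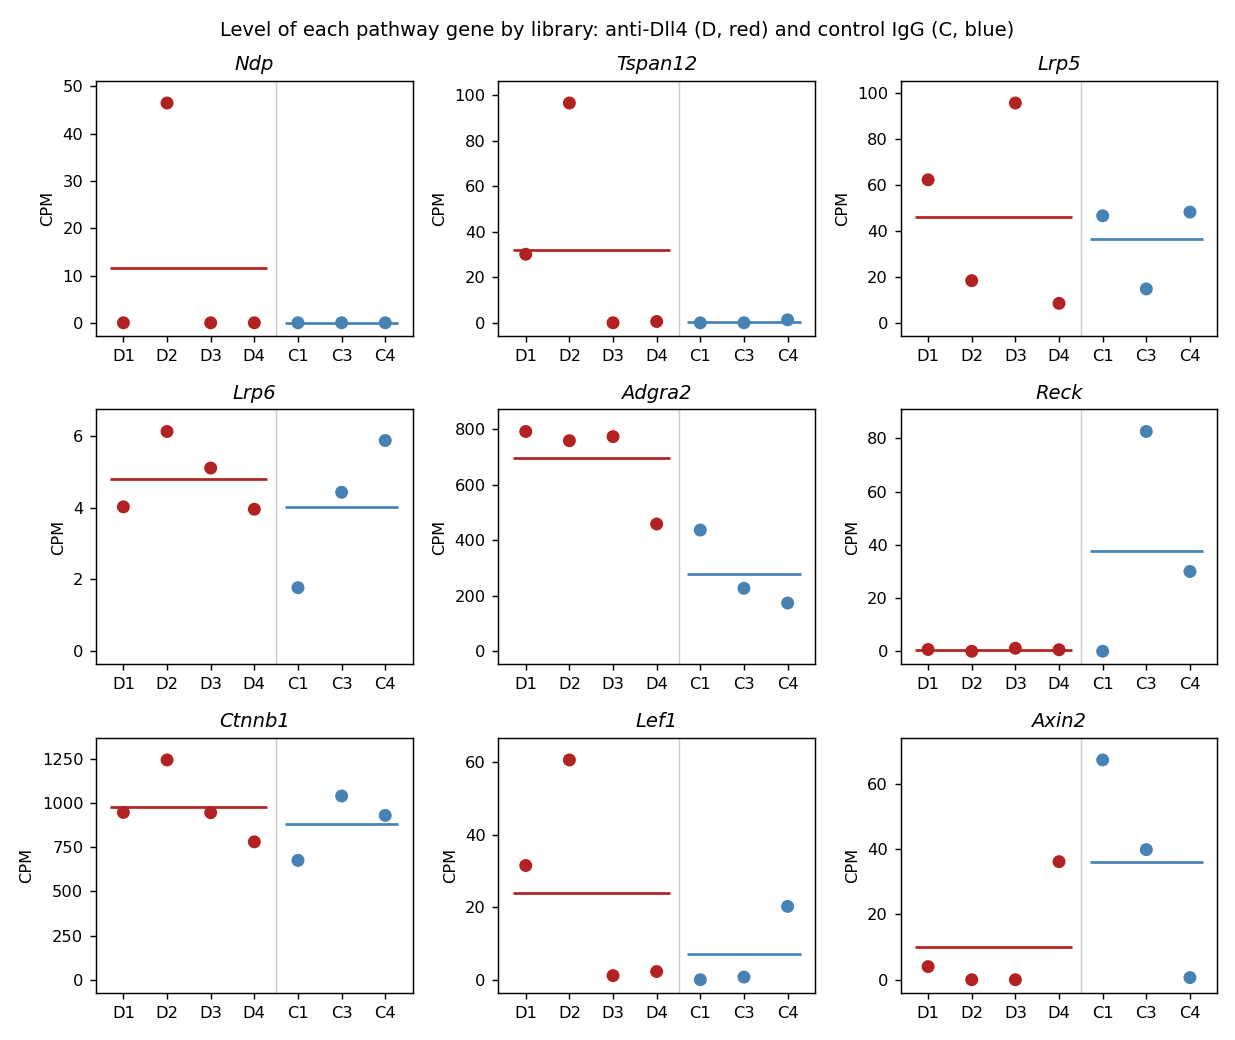
CPM of the 9 genes in each library, with anti-Dll4 libraries 1 to 4 (D, red) left of control IgG libraries 1, 3 and 4 (C, blue) and horizontal lines at group means; each panel has its own linear axis. Adgra2 is the panel in which every red point lies above every blue one, Ctnnb1 is read in all 7 libraries, and Ndp, Tspan12, Reck, Lef1 and Axin2 sit near 0 in some libraries and far above it in others.

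Ndp, the norrin gene, was read in a single library. It had 76 reads (46.5 CPM) in anti-Dll4 2, 0 reads in anti-Dll4 1, 3 and 4, and 0 reads in all 3 control libraries. Transcripts of this ligand, which Müller glia make in the retina, were thus not detectable at this depth in 6 of 7 libraries. Müller glia markers summed to 2708 CPM in anti-Dll4 2 and to 2697 CPM in anti-Dll4 1, where Ndp had no reads. Whether the share of glial RNA bears on the reads of Ndp was not tested.

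The norrin co-receptors Lrp5 and Lrp6 were read in every library. Lrp5, the co-receptor whose loss causes sparse retinal vessels, had 62.3, 18.3, 95.7 and 8.47 CPM in anti-Dll4 libraries 1 to 4, against 46.6, 14.7 and 48.2 CPM in control IgG libraries 1, 3 and 4. The highest and the lowest value both lay in the anti-Dll4 group, and the control values lay between them. The change was -0.03 ± 1.16 (limma SE, adjusted p = 0.996), and its 95% interval of -2.45 to 2.38 leaves room for a large change either way.

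Lrp6, its close relative, had few reads. There were 6, 10, 9 and 7 reads in anti-Dll4 libraries and 3, 6 and 9 in control libraries, which is 3.95 to 6.12 CPM in anti-Dll4 and 1.77 to 5.87 CPM in control libraries. The groups overlapped, and the exact Poisson intervals of the lowest library (3 reads, 0.619 to 8.77) and the highest (10 reads, 4.80 to 18.4) overlapped too; they cover counting error only. The change was 0.29 ± 1.44 (adjusted p = 0.979).

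Tspan12, the tetraspanin that enhances the norrin response of Frizzled-4, had 45, 158, 0 and 1 reads in anti-Dll4 libraries 1 to 4, against 0, 0 and 2 reads in control libraries 1, 3 and 4. Libraries 1 and 2 of the anti-Dll4 group were high, at 30.1 and 96.6 CPM, and the other two were as low as the controls, so the groups overlapped. The change of 2.65 ± 1.56 did not pass (adjusted p = 0.75). Tspan12 met the filter through anti-Dll4 1 and 2 and control IgG 4, whose 2 reads (1.30 CPM) are below the level that a count of 0 allows. It failed the filter when any of these libraries was left out.

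The Wnt7 co-receptor genes Adgra2 and Reck had fitted changes of opposite sign. Adgra2, an adhesion G protein-coupled receptor that brain endothelium needs for Wnt7 signals, had 793, 760, 774 and 459 CPM in anti-Dll4 libraries 1 to 4, against 437, 227 and 174 CPM in control libraries 1, 3 and 4. All anti-Dll4 libraries lay above all control libraries, with anti-Dll4 4 and control IgG 1 close to each other. The mean was 696 ± 159 CPM (SD, n = 4) in anti-Dll4 and 279 ± 139 CPM (SD, n = 3) in control libraries, 2.49 times as much, and these levels rest on 267 to 1367 reads per library. The log2 change was 1.39 ± 0.39 (limma unadjusted p = 0.00178, adjusted p = 0.299, 95% interval 0.58 to 2.20). By limma without the variance trend, the unadjusted p was 0.0689 (adjusted p = 0.798). An exact permutation test of the log2 values gave p = 0.0286, the smallest that the 35 splits of 7 libraries into 4 and 3 can give (two-sided). With the groups fully apart, this value adds little to the separation already given.

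The summed endothelial markers stood 2.14 times as high in anti-Dll4 as in control libraries in mean CPM. Per 100 CPM of summed endothelial markers, Adgra2 stood at 12.2, 11.8, 7.99 and 6.08 CPM in anti-Dll4 libraries, against 16.0, 5.05 and 5.20 CPM in control libraries. The groups overlapped on this measure (log2 difference 0.28, exact permutation p = 0.629, two-sided). With libraries scaled on the endothelial markers, the change in limma was 0.28 ± 0.49 (adjusted p = 0.785), beside a median of -1.09 over all genes on that scaling. Of the 18 markers, 16 had positive changes and 1 passed in limma, against 45.5% positive and 0.119% passing of all tested genes. Wherever it is used here, this scaling may therefore also take out an effect of the treatment on the markers themselves. Whether it did was not tested. In GENCODE M21 the last exon of Adgra2 shares 73 bases at its 3′ end with an exon of Brf2 on the opposite strand. The use of strand in the counting is not stated, and reads of Brf2, which was not analysed here, may be among those of Adgra2.

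Among 4291 genes averaging 5 or more on the log2 scale, those with the pattern most like Adgra2 over the 7 libraries were Rpl13a, a ribosomal protein gene whose reads may be shared with pseudogene copies (Pearson r = 0.97), Rnf7, a part of ubiquitin ligases (r = 0.95), and Slco2b1, an organic anion transporter (r = 0.95). Slco2b1 had 368, 220, 429 and 142 CPM in anti-Dll4 libraries, against 92.6, 52.4 and 7.82 CPM in control libraries. These likenesses are a description over libraries that share their depth and marker sums.

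**Figure D2:**
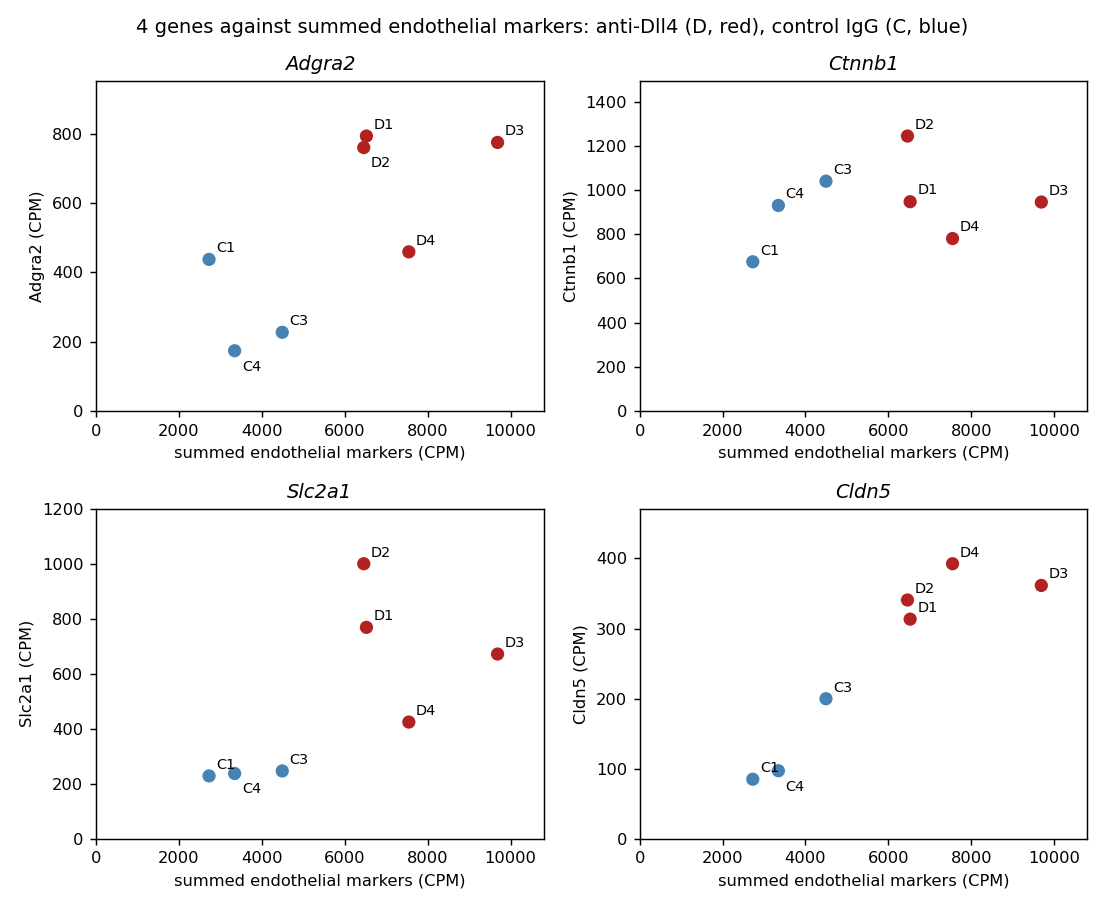
CPM of 4 genes (vertical, linear) against the summed CPM of 18 endothelial markers (horizontal) in each library, anti-Dll4 in red (D1 to D4) and control IgG in blue (C1, C3, C4). The red points lie to the right of the blue points throughout, from 6460 CPM against at most 4494 CPM; Adgra2, Slc2a1 and Cldn5 are also higher in all red points, and Ctnnb1 overlaps.

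Reck, which binds Wnt7 and hands it to the receptor complex with Adgra2, had 1, 0, 2 and 1 reads in anti-Dll4 libraries 1 to 4, against 0, 112 and 46 reads in control libraries 1, 3 and 4. Every anti-Dll4 library was at 1.13 CPM or less, below the level that a count of 0 allows, and so was control IgG 1, while control IgG 3 and 4 had 82.6 and 29.98 CPM. The groups overlapped because of control IgG 1. The change was -3.16 (95% interval -6.27 to -0.05, limma unadjusted p = 0.0467, adjusted p = 0.695), and an exact permutation test gave p = 0.143 (two-sided). The unadjusted p was 0.0578 by limma without the variance trend, 0.0817 by limma voom and 0.0269 by limma with endothelial scaling. It thus lay on either side of 0.05 depending on the fit. Without control IgG 1 the change was -5.05, more than 1.5 times as large, and still did not pass (adjusted p = 0.525).

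Ctnnb1, the beta-catenin gene, which also serves cell adhesion and is expressed by many cell types, was read at a like level in all libraries. It had 948, 1245, 946 and 781 CPM in anti-Dll4 libraries, against 676, 1040 and 931 CPM in control libraries. The groups overlapped, with means of 980 ± 193 CPM (SD, n = 4) in anti-Dll4 and 882 ± 187 CPM (SD, n = 3) in control libraries. The log2 change was 0.15 ± 0.29 (adjusted p = 0.939), with a 95% interval of -0.44 to 0.75, the narrowest among the 8 genes. Scaled on endothelial markers, the change turned to -0.96 ± 0.37 (adjusted p = 0.178), near the median of all genes there. In GENCODE M21 the 3′ end of Ctnnb1 shares 759 exon bases with Ulk4 on the opposite strand, and Ulk4 was not analysed here.

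Lef1, the nuclear partner of beta-catenin that is itself raised by Wnt signals in endothelium, had 47, 99, 2 and 4 reads in anti-Dll4 libraries 1 to 4, against 0, 1 and 31 reads in control libraries 1, 3 and 4. Anti-Dll4 1 and 2 were high, at 31.5 and 60.5 CPM, and control IgG 4 had 20.2 CPM, so the groups overlapped. The change was 1.71 ± 1.77 (adjusted p = 0.872), and 0.84 without control IgG 1 to 3.04 without control IgG 4. Lef1 met the filter through the anti-Dll4 libraries, with 1 control library at 1 CPM or more.

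Axin2, the feedback target most often used to read Wnt activity, had 6, 0, 0 and 64 reads in anti-Dll4 libraries, against 114, 54 and 1 reads in control libraries. Anti-Dll4 4 had 36.1 CPM, and control IgG 1 and 3 had 67.3 and 39.8 CPM, and the remaining libraries were at 4.02 CPM or less. The groups overlapped, and the change of -2.17 ± 1.84 did not pass (adjusted p = 0.838). It was -1.15 without control IgG 1 and -3.84 without control IgG 4. Lef1 and Axin2, both known as targets of the pathway, thus had fitted changes of opposite sign with 95% intervals of -1.97 to 5.38 and -6.004 to 1.66, and the difference between them was not tested.

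**Figure D3:**
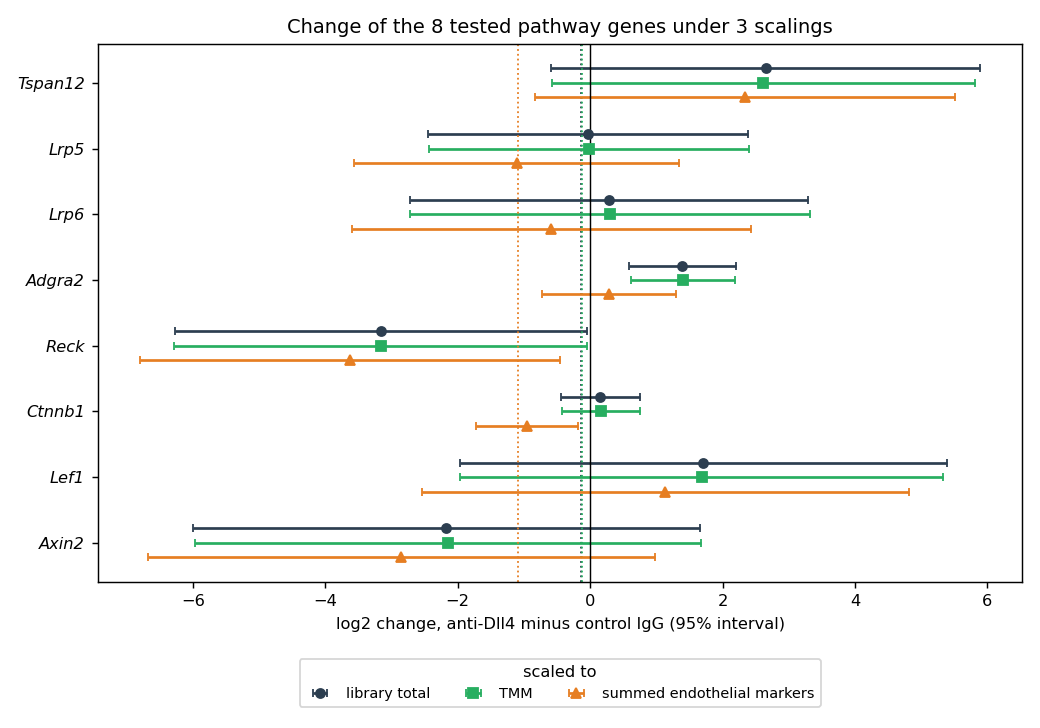
Log2 change (anti-Dll4 minus control IgG) of the 8 tested genes with 95% limma intervals, with libraries scaled to their total, by TMM, or on summed endothelial markers; dotted lines mark the median change of all tested genes under each scaling. Intervals of Tspan12, Lrp5, Lrp6, Lef1 and Axin2 cross 0 under all 3 scalings, that of Adgra2 crosses it only under endothelial scaling, that of Ctnnb1 leaves it only there, and that of Reck lies below 0 under all 3.

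Spread of this kind was common in these libraries. Tspan12, Ndp, Reck, Lef1 and Axin2, 5 of the 9 genes, had 3 or fewer reads in at least 1 library and 30 or more in another. So did 50.9% of the 12756 genes of the table, and 94.0% of the 3104 genes whose mean CPM lay in the range of those 5 members, 6.64 to 21.1. The median SD of a tested gene was 1.56 log2 units between anti-Dll4 and 1.05 between control libraries. Adgra2 had 0.38 in anti-Dll4 and 0.68 in control libraries, and Ctnnb1 0.28 in anti-Dll4 and 0.32 in control libraries. Anti-Dll4 2 was the highest library for 5 of the 9 (Lrp6, Tspan12, Ndp, Ctnnb1 and Lef1) and for 13.8% of all genes.

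The wider pathway was described by 5 lists with 101 genes, of which 64 were in the table and 49 were tested. None passed (0 of 49 by limma, 0 by limma voom), and 9 had an unadjusted p under 0.05 in both fits, 7 higher and 2 lower, among 3.68% higher and 3.41% lower of all tested genes. Of the 7, Tle1, Kremen1 and Znrf3 met the filter through the anti-Dll4 libraries, where they were higher, with at most 1 control library at 1 CPM, so their count is no support for a direction. The median change of the 49 was 0.33, beside -0.14 over all tested genes. This median includes Tle1, Kremen1 and Znrf3 and is no support for a direction either. Of 25 genes for ligands, R-spondins and their secretion, 6 were in the table and 1, Porcn, was tested.

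The ligands themselves were read in few libraries. Wnt7b, a ligand of the complex with Adgra2 and Reck, had 71 reads in control IgG 3 and 0 reads in the other libraries of either group, and Wnt7a was not analysed here. Wnt3 had 62 reads in anti-Dll4 4 and 0 elsewhere, and Wnt5a, a ligand best known outside the beta-catenin branch, 33 and 124 reads in anti-Dll4 1 and 3 and 0 elsewhere. Wnt9a had 190, 34, 0 and 0 reads in anti-Dll4 libraries, against 0, 0 and 1 in control libraries. Wnt5b had 6, 0, 0 and 0 reads in anti-Dll4 libraries, against 16, 1 and 0 in control libraries. Porcn, the enzyme that attaches the lipid Wnts need for secretion, had a change of 0.88 ± 1.15 (adjusted p = 0.901).

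Other receptors (7 tested of 10 in the table) had 3 positive and 4 negative changes with a median of -0.22. Fzd6, a Frizzled receptor, had 70.3, 130, 14.2 and 10.7 CPM in anti-Dll4 libraries, against 0, 45.7 and 0.652 CPM in control libraries, with a change of 3.08 ± 1.72 (adjusted p = 0.731). Its groups overlapped because of control IgG 3, the 1 control library at 1 CPM or more. The change was 4.80 without that library and 2.03 without control IgG 1. Ror1, a receptor for Wnt5a, had 0, 0, 0 and 5 reads in anti-Dll4 and 42, 0 and 35 in control libraries (change -2.60 ± 1.30, adjusted p = 0.706).

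Intracellular transducers (23 tested) had 11 positive and 12 negative changes, with a median of -0.29. Apc, a scaffold of the complex that marks beta-catenin for breakdown, had 642, 565, 456 and 257 CPM in anti-Dll4 libraries, against 1109, 748 and 776 CPM in control libraries. All anti-Dll4 libraries lay below all controls, and the change was -0.92 ± 0.36 (unadjusted p = 0.0168, adjusted p = 0.629). With libraries scaled on endothelial markers it was -2.03 and passed (limma adjusted p = 0.0479), beside a median of -1.09 over all genes. Tle4, a Groucho co-repressor that binds TCF factors, had 27.1 ± 26.8 CPM (SD, n = 4) in anti-Dll4 and 108 ± 59.4 CPM (SD, n = 3) in control libraries, with groups that did not overlap (change -2.41 ± 1.09, adjusted p = 0.695). Tle4 had 65.4 CPM (107 reads) in anti-Dll4 2 and 68.4 CPM (105 reads) in control IgG 4, a gap within counting error. Its relative Tle1 had 35, 124, 106 and 7 reads in anti-Dll4 and 0, 9 and 0 in control libraries (change 3.80 ± 1.72, adjusted p = 0.695), with 1 control library at 1 CPM or more.

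Antagonists had 6 tested members, with a median change of 0.51. Kremen1, a receptor for the Wnt inhibitor Dkk1, had 27, 27, 90 and 10 reads in anti-Dll4 libraries, against 1, 0 and 3 in control libraries. The groups did not overlap, and the change was 3.46 ± 1.58 (adjusted p = 0.695), with 1 control library at 1 CPM or more. Znrf3, a ubiquitin ligase that removes Frizzled from the cell surface, had 8, 62, 0 and 171 reads in anti-Dll4 and 0 reads in every control library. With each control set to 3 reads, its mean CPM was 17.7-fold higher in anti-Dll4, or 7.29-fold without anti-Dll4 4. This bound covers counting error in the controls only and not the spread between libraries. The limma change was 3.64 (95% interval 0.40 to 6.88, adjusted p = 0.690). Znrf3 passed the filter only through the anti-Dll4 libraries, 1 of which was at 0. The median of the antagonists is 0.51 also with Znrf3 at that bound, which could not move it, since Znrf3 lies above the median either way. This median counts Znrf3 and Kremen1, which met the filter through the anti-Dll4 libraries, and is no support for a direction.

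Genes of the barrier that depend on this signal in mouse brain or retina (12 tested) had 9 positive and 3 negative changes, with a median of 1.16, beside the higher endothelial marker sum in the same libraries. Slc2a1, the glucose transporter GLUT1, had 770, 1002, 673 and 425 CPM in anti-Dll4 libraries, against 229, 247 and 238 CPM in control libraries, and the groups did not overlap (change 1.52 ± 0.37, adjusted p = 0.164). Cldn5, the main claudin of endothelial tight junctions, had 313, 341, 361 and 392 CPM in anti-Dll4 libraries, against 85.0, 200 and 97.1 CPM in control libraries (change 1.56 ± 0.47, adjusted p = 0.358). Slc7a5, an amino acid transporter, had 312 to 929 CPM in anti-Dll4 and 110 to 175 CPM in control libraries (change 2.02 ± 0.45, adjusted p = 0.0928). With libraries scaled on endothelial markers, which include none of these 3 genes, the changes were 0.42 for Slc2a1, 0.46 for Cldn5 and 0.91 for Slc7a5 (limma adjusted p from 0.338 to 0.656).

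Mfsd2a, a lipid transporter that restrains transcytosis, had 30.6 to 104 CPM in anti-Dll4 and 37.8 to 79.5 CPM in control libraries (change 0.18 ± 0.79, adjusted p = 0.974). Foxq1, a forkhead factor of brain endothelium, had 283 to 425 CPM in anti-Dll4 libraries, against 30.6 to 408 CPM in control libraries, with overlap (change 1.60 ± 0.62, adjusted p = 0.637). The change was 0.64 without control IgG 4, 2.48 without control IgG 3 (adjusted p = 0.128) and 0.49 with endothelial scaling. Plvap was not analysed here.

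**Figure D4:**
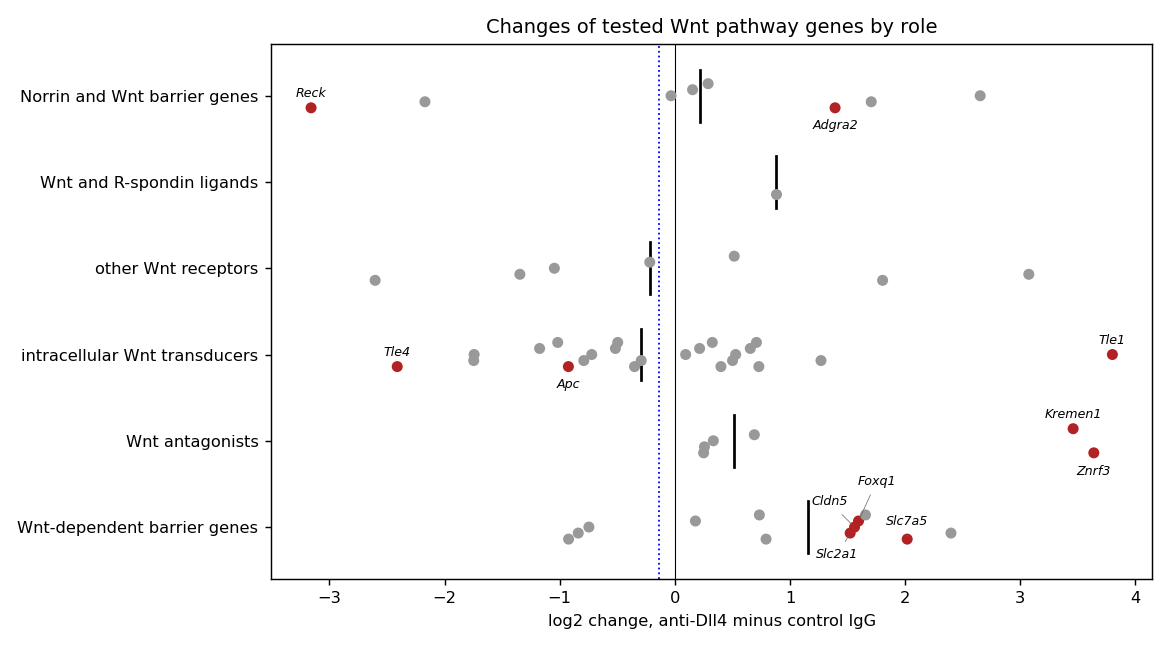
Log2 change (anti-Dll4 minus control IgG) of each tested gene by role, with black bars at list medians and a dotted line at the median of all tested genes, -0.14; red points have an unadjusted limma p under 0.05 and none passed the adjusted threshold. Barrier genes lie mostly right of 0 with a median of 1.16, and transducers spread to both sides with a median of -0.29.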

How the data were processed

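The deposited values are log10 of CPM + 1 per gene and library, made by the authors from QuantSeq 3′ reads. Per the submitters' processing notes, cutadapt, TopHat2 and bedtools were used, and the build is named as hg19 although the gene symbols are mouse. Not given in the sources used here were their roles, the annotation, the counting rule and the use of strand. CPM was recovered from each value, and whole reads from the steps between low values. Each library had 1356192 to 1771086 reads, and 3 reads, the limit that a count of 0 allows, are 1.69 to 2.21 CPM, for counting error only.

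Genes that reached 1 CPM in 3 or more libraries were fitted with limma 3.58.1 (R 4.3.3) on log2(CPM + 1), a pseudocount of 1, with a variance trend, and p-values were adjusted by Benjamini-Hochberg over 10899 genes at a threshold of 0.05. Fold changes on this scale understate the change of low genes. All 7 libraries entered the fit, with no covariate. The column control IgG 1 matches the number of no control title and was used as a control without a number of its own. Single values were also tested by exact permutation, and the fits were tested on simulated data.

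The members and lists were chosen with earlier results of these data known. Every member was named, and from each pathway list up to 4 genes with an unadjusted p under 0.05 or otherwise the 2 with the smallest p, Cldn5, Slc2a1, Mfsd2a and Plvap in every case, and the 3 genes most like the member with the smallest p by Pearson r. The ligand genes below the filter were named after their values were seen. The input RNA and Fzd4 were not analysed here. Alternatives were other pseudocounts, filters, scalings and fits, a replicate block and leaving out each library.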

Additional observations from a re-analysis of the deposited data

Results flagged for a closer look

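In groups of 4 libraries, a value stands apart by Dixon's criterion when its gap to the nearest other fills most of the group's range. For normally distributed values, chance alone gives this in about 1 of 20 groups. That rate does not hold where the other libraries are tied at 0. Only the anti-Dll4 group has 4 libraries, so the control group was not examined this way. Of 22 genes examined, 3 had such a library. Ndp stood at 5.57 on the log2(CPM + 1) scale in anti-Dll4 2, with the other anti-Dll4 libraries at 0. Adgra2 stood at 8.85 in anti-Dll4 4, below the other anti-Dll4 libraries, with a gap of 0.922 of the range. Ror1 stood at 1.93 in anti-Dll4 4, with the other anti-Dll4 libraries at 0. For Ndp and Ror1 the tie at 0 alone puts the gap at the whole range.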

How the results depend on the processing

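No member that was tested passed the threshold under any setting run. The change of Adgra2 was positive in all 16 alternatives, from 0.28 to 1.77 (limma adjusted p from 0.156 to 0.798). Of all genes, 13 passed, against 0 by limma without the trend, 38 by limma voom, 50 with scaling on endothelial markers, 3 with the replicate block and 3 to 22 with 1 library left out. The number of members with a positive change, 5 of 8, was 3 of 8 with endothelial scaling and 2 of 8 with the block. With 1 library left out it was 4 to 6, of 6 to 8 tested, since Reck and Tspan12 failed the filter in some of these fits. Endothelial scaling put the median of all genes at -1.09, Lrp6 at -0.59, Ctnnb1 at -0.96, Porcn at -0.19 and Mfsd2a at -0.91, and 1 wider Wnt gene passed there, Apc, at -2.03 (adjusted p = 0.0479). Libraries with the same title number had correlations of 0.0457 and 0.0672 between their deviations, against -0.0221 and -0.0308 for those with different numbers. All were near 0, so the title numbers were not shown to pair the libraries. With the replicate block, Lrp5 stood at 0.12, Lrp6 at -0.15, Tspan12 at -0.28, Ctnnb1 at -0.19, Lef1 at -1.20, Mfsd2a at -0.58, Axin2 at -0.43 and Fzd6 at 0.60, and the members' median at -0.24. Lrp5 stood at 0.013 with a pseudocount of 5. With 1 library left out, changes ranged from -0.57 to 0.56 for Lrp5, -0.091 to 0.56 for Lrp6, -0.026 to 0.28 for Ctnnb1, -0.081 to 1.63 for Porcn, -4.15 to -2.44 for Ror1 and -0.16 to 0.57 for Mfsd2a. In the replicate block fit, anti-Dll4 1, anti-Dll4 2 and control IgG 1 each formed a block alone. The changes in that fit therefore rest on anti-Dll4 3 and 4 and control IgG 3 and 4 only. The cause of the other shifts was not tested. The planned fits with edgeR and DESeq2 on the recovered reads were not run, and limma voom was the only fit of those reads. Depth limits Lrp6, at 3 to 10 reads, and the genes at 0 to 3 reads in some libraries.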
